A study of Sus scrofa with 12 samples.

Results

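The genes described here are 10 effectors of the integrated stress response: ATF4, DDIT3, XBP1, HERPUD1, TRIB3, PPP1R15A, ASNS, CHAC1, SESN2 and VLDLR. They were taken by symbol from a table of merged m6A peaks, where they have 16 of 25055 peaks, and by gene identifier from a table of gene expression, where 11 of 20889 identifiers are theirs because DDIT3 has 2. All 10 genes have at least 1 peak, and PPP1R15A has the most with 3.

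The integrated stress response lowers general protein synthesis when the initiation factor eIF2 is phosphorylated by one of several kinases, which sense misfolded protein, amino acid shortage, haem shortage or double-stranded RNA. Translation of the transcription factor ATF4 then increases through short reading frames in the 5' part of its own mRNA, and ATF4 turns on genes of amino acid supply, redox balance and, through DDIT3 (CHOP), cell death. The unfolded protein response of the endoplasmic reticulum feeds into the same programme and adds XBP1, whose mRNA is spliced by the sensor kinase IRE1. N6-methyladenosine (m6A) is an internal base modification of mRNA that is read by proteins such as YTHDF2 and affects translation and decay.

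All libraries come from IPEC-J2, a line of pig intestinal epithelial cells with the genotype given as WT, kept in DMEM/F12 medium with serum. Control cultures (CON) received 0 µM and treated cultures (OAA) 25 µM of the compound that the labels call OAA, both for 24 h. The series title names the m6A reader YTHDF2, the proteasome subunit PSMD3, lipid accumulation and an oxindole acetic acid derived from a gut bacterium. Each treatment had 3 numbered replicates, and the RNA of each, in pieces of about 100 nt, was split between an m6A antibody pull-down and an input, which made 12 libraries in 4 groups of 3. No label states separate cultures, and below a culture means a numbered replicate of a treatment. The p-values therefore rest on how far these samples differ among themselves, and that spread may be technical only. All 12 libraries carry the same batch entry.

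The titles and the deposited ratios differ on which libraries are the antibody part. The libraries titled input held 16.5M to 23.0M reads in peaks in CON and 19.0M to 21.5M in OAA. Those titled IP held 3.71M to 4.46M in CON and 4.36M to 4.61M in OAA. The ratios (log2) that the authors' deposited table gives follow labelled input over labelled IP across peaks, with r = 1.00 over 24545 peaks in CON, which are not independent replicates. The median of these deposited ratios was 3.97 in CON and 4.04 in OAA. The peak ratio given below is therefore log2 of labelled input over labelled IP, relative to the reference level that the scaling sets for all peaks. A call of lower means below that level only. In the authors' deposited ratios every member peak lay above 0 in CON, from 2.13 for the ATF4 peak to 5.88 for the SESN2 stop codon peak (log2). Should the titles be right, antibody enrichment has the opposite sign. The deposited expression values (FPKM, fragments scaled by transcript length and library size) bear library codes that belong to the labelled IP samples. With the titles right, these FPKM values would measure pulled-down RNA in place of transcript level. In those values 5 of the 6 epithelial markers measured reached a mean of 1 FPKM, KRT8 at 396 and EPCAM at 196, while VIL1 of the brush border stood at 0.2455. None of 5 fibroblast markers reached that level, all 3 endothelial markers did (CDH5 at 3.785), and of 4 leukocyte markers only CD79A did, at 6.22 with PTPRC listed at 0. The summed levels of each of these lists overlapped between CON and OAA.

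Of the 16 peaks, 4 were annotated at the start codon and 4 at the stop codon, beside 4263 and 5147 of the 23366 peaks tested in CON. The 2 DDIT3 peaks carry several annotations. The genome build is not given in the sources used here, and positions are those of the deposited table. Among the transcription factors, the ATF4 peak spans chromosome 5, 8744894 to 8745223, on the minus strand gene, and is annotated wholly in the 5' UTR, the part of the mRNA that holds the short upstream reading frames. The reference table pairs the symbol ATF4 with another gene identifier, which is in neither deposited table, so the identity of ENSSSCG00000000084 as ATF4 rests on the deposited symbol. DDIT3 has an upstream peak at chromosome 5, 22786218 to 22787036, and a downstream one at 22785491 to 22785924. The upstream peak is annotated at the start codon for one DDIT3 identifier and at the stop codon for the other, and the downstream peak is also listed under the 3' end of MARS1, a methionyl-tRNA synthetase gene on the opposite strand. Peaks carry no strand, so reads of DDIT3 and MARS1 cannot be told apart there. The XBP1 peak covers the start codon at chromosome 14, 46015138 to 46016533.

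Of the feedback genes, PPP1R15A (GADD34), which brings a phosphatase to eIF2, had a 5' UTR peak at chromosome 6, 54172150 to 54172249, a coding peak at 54173240 to 54173464, and a peak of 1671 bp from the coding sequence over the stop codon at 54173590 to 54175260. TRIB3, a pseudokinase that restrains ATF4 and DDIT3, had a stop codon peak at chromosome 17, 34809684 to 34810183, and a 3' UTR peak of 50 bp at 34808534 to 34808583.

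Of the metabolic targets, CHAC1, an enzyme that breaks down glutathione, had a start codon peak at chromosome 1, 130362985 to 130363209, and a stop codon peak at 130360763 to 130361437. SESN2, a leucine-binding inhibitor of mTORC1, had a stop codon peak at chromosome 6, 85346392 to 85346766, and a 3' UTR peak at 85347842 to 85347991. ASNS, the asparagine synthetase, had a start codon peak of 6771 bp at chromosome 9, 77336200 to 77342970, whose midpoint lies 169435 bp from the 5' end of a gene model that is 190808 bp long. HERPUD1, a membrane protein of endoplasmic reticulum degradation, had a start codon peak at chromosome 6, 18901383 to 18901532. VLDLR, a receptor for lipoproteins, had a peak annotated in the 5' UTR at chromosome 1, 219210007 to 219210274. Its deposited gene model, on the minus strand, begins at 219210080, so most of this peak lies upstream of the model.

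**Figure D1:**
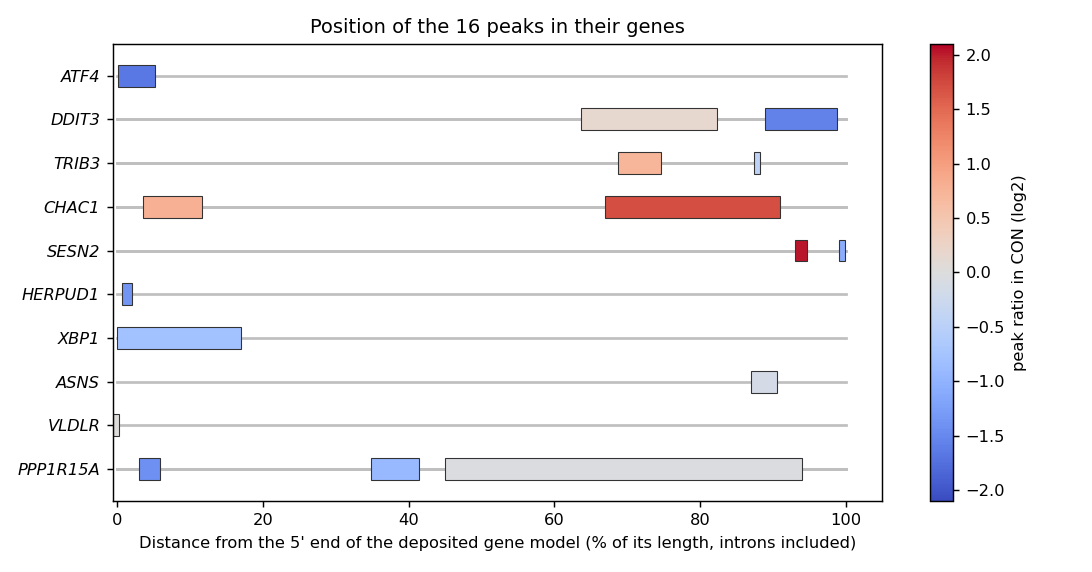
Position of the 16 peaks as percent of the length of each deposited gene model, measured from its 5' end with introns included; boxes are drawn to width, with a minimum width for narrow ones, and coloured by the peak ratio in CON (log2). The ATF4, HERPUD1, XBP1 and VLDLR peaks lie at the 5' end, and the SESN2 and TRIB3 peaks in the last part of the gene.

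The deposited FPKM values of the 10 genes spanned a wide range. XBP1 was the highest at a mean of 91.2 FPKM over the 6 libraries, at percentile 93.5 of the 10763 genes tested. VLDLR (42.2), HERPUD1 (38.5), ATF4 (34.0) and ASNS (30.9) followed, then PPP1R15A (18.3), DDIT3 (10.7), TRIB3 (8.87), CHAC1 (6.96) and SESN2 (2.06 FPKM, percentile 10.1). In this order the libraries' ranges did not overlap between XBP1 and VLDLR, ASNS and PPP1R15A, PPP1R15A and DDIT3, or CHAC1 and SESN2. Neighbours from VLDLR to ASNS, and from DDIT3 to CHAC1, had overlapping ranges and are not ordered beyond their spread. The second DDIT3 identifier, ENSSSCG00000044553, had 0.6405 FPKM and was too low to be tested.

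**Figure D2:**
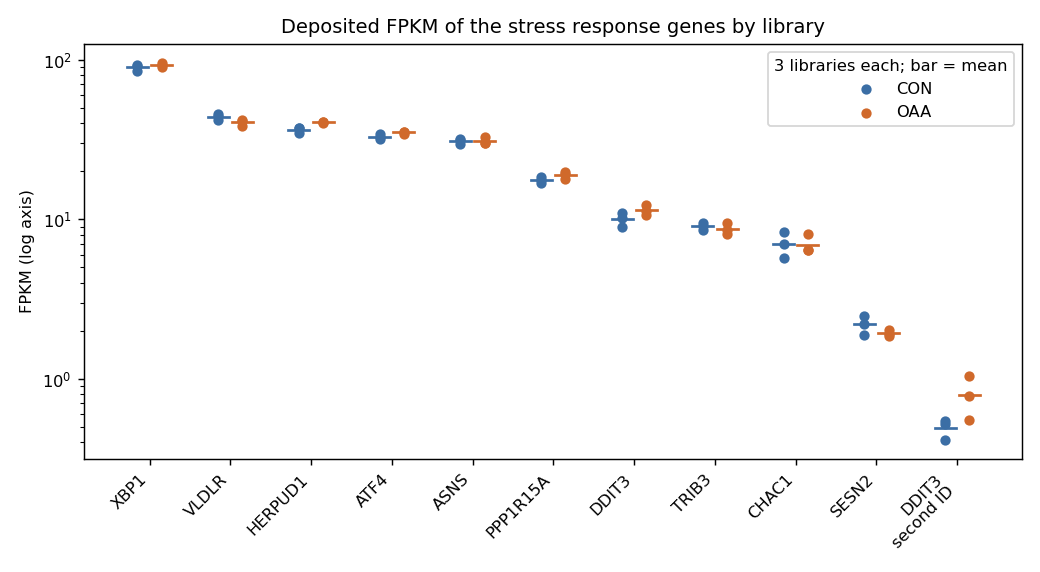
Deposited FPKM (log axis) of each gene identifier in the 3 CON and 3 OAA libraries that carry FPKM codes; points are libraries and bars are means. Differences between genes reach from 2.06 FPKM for SESN2 to 91.2 FPKM for XBP1, while CON and OAA lie close together within each gene.

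Whether 24 h of OAA altered the level of these transcripts was read from the same FPKM values. They stand for transcript level only if the libraries labelled IP are the input part. No member was called by limma: 0 of 10 tested, with HERPUD1 as the 1 member at an unadjusted p under 0.05, against 0 (0%) of 10763 genes called and 3.31% of them at an unadjusted p under 0.05. In bulk RNA, fewer cells that express a gene and less of its RNA per cell cannot be told apart. The median difference of the members, OAA over CON, was 0.03 on the log2(FPKM + 1) scale, with 6 of 10 above 0, and that of all genes tested was -0.01. The member median was 0.02 without OAA library 2 and 0.05 without OAA library 3, and without the latter 1763 of 10706 genes, in place of 356 of 10763, had an unadjusted p under 0.05.

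In CON, HERPUD1 stood at 34.6, 37.1 and 37.25 FPKM, and in OAA at 40.9, 40.3 and 40.8. OAA was higher in every library, by 0.16 (log2(FPKM + 1), 95% interval 0.04 to 0.28, limma adjusted p = 1.00). ATF4 stood at 34.2, 31.9 and 32.7 FPKM in CON and 35.4, 34.45 and 35.2 in OAA. Its OAA values all lay above CON, by 0.09 (-0.03 to 0.21, log2(FPKM + 1)). VLDLR lay the other way, at 42.0, 45.4 and 44.3 FPKM in CON and 41.3, 38.4 and 41.6 in OAA, a difference of -0.12 (-0.24 to 0.01). Members without overlap thus numbered 2 with OAA higher and 1 with OAA lower of 10 tested, against 3.28% and 5.27% of all genes tested.

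The effector DDIT3 stood at 8.90, 11.0 and 10.1 FPKM in CON and 12.3, 11.3 and 10.6 in OAA, with overlapping groups and a difference of 0.17 (-0.02 to 0.37, log2(FPKM + 1)). Its second identifier had 0.540, 0.412 and 0.520 FPKM in CON and 0.779, 0.550 and 1.04 in OAA. These groups did not overlap, though 1 library alone reached the minimum of 1 FPKM, and no test was made. PPP1R15A had 18.5, 17.7 and 16.95 FPKM in CON and 19.8, 19.3 and 17.85 in OAA, which overlapped.

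The remaining 5 genes had overlapping groups. XBP1 differed by 0.06, ASNS by 0.00, CHAC1 by 0.00, TRIB3 by -0.05 and SESN2 by -0.12 (log2(FPKM + 1), OAA over CON). The 95% interval reached from 0.113 log2 units to either side for XBP1 to 0.2825 for CHAC1, which ranged from 5.70 to 8.29 FPKM in CON.

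The peak ratio in untreated cells divided these genes. The highest ratios belonged to the stop codon peaks of SESN2 and CHAC1, and the lowest to the 5' UTR peaks of ATF4 and PPP1R15A and to the downstream DDIT3 peak. By edgeR 11 of 16 peaks were called against the reference level in CON, 4 higher and 7 lower, beside 69.5% of 23366 peaks in all (34.9% higher and 34.6% lower), so the share of called members lies near the background. At an unadjusted p under 0.05 there were 11 members, beside 71.5% of all peaks. The member peaks had a median of -0.30 and all tested peaks one of 0.01 (log2). The member median was -0.73 without CON labelled-input library 1 and -0.03 without CON labelled-input library 3. In both of these fits the upstream DDIT3 peak failed the filter and 15 members entered, so part of the shift is a change of members. Scaled by library size alone, the split of member calls became 3 higher and 9 lower, and that of all peaks went from 8166 higher and 8076 lower to 6403 and 10102, with the median of all peaks at -0.33, so each ratio is relative to the scaling.

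The ATF4 peak had ratios of -1.34, -1.38 and -2.37 in the CON cultures. All 3 lay below 0, at -1.67 ± 0.18 (log2, SE, edgeR adjusted p = 2.53e-08), below all but 1.87% of the 1287 peaks wholly in a 5' UTR, a class whose median was 0.34. In CON it held 420, 217 and 242 reads in the libraries labelled input against 245, 194 and 257 in the much smaller libraries labelled IP.

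DDIT3 had unlike peaks in CON. The downstream peak, shared with MARS1, lay at -1.56 ± 0.12 (adjusted p = 5.93e-11), with -1.42, -1.63 and -1.61 by culture. The upstream peak, on 21 to 40 reads labelled input and 5 to 9 labelled IP, lay at 0.16 ± 0.49 and was not called. The XBP1 start codon peak was called lower at -0.79 ± 0.11 (adjusted p = 6.39e-07), with -0.70, -1.09 and -0.63 by culture.

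HERPUD1, like ATF4 and XBP1, has its peak at the 5' end, and it was called lower too, at -1.36 ± 0.23 (adjusted p = 1.80e-05). The CON cultures had -0.91, -1.86 and -1.47, and 9.76% of 4263 start codon peaks lay below the fitted value. The start codon peak of ASNS (-0.15 ± 0.21) and the 5' UTR peak of VLDLR (0.03 ± 0.42) were not called in CON. VLDLR had 8 to 17 reads labelled IP per CON library, although its mean FPKM was the second highest of the genes.

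CHAC1 was the gene with both peaks called higher in CON. Its stop codon peak had ratios of 2.08, 1.44 and 1.67 in the CON cultures and lay at 1.71 ± 0.11 (log2, SE, adjusted p = 1.87e-12), or 3.28-fold above the reference level. Reads were 2289, 1583 and 2369 in the CON libraries labelled input, against 125, 201 and 152 for labelled IP. The start codon peak lay at 0.80 ± 0.36 (adjusted p = 0.0493), a call that was lost by DESeq2 (0.0648), without the filter (0.0581), with library size scaling (0.258), and without CON labelled-IP library 1 (0.263) or 3 (0.128) or CON labelled-input library 2 (0.0731) or 3 (0.0609).

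SESN2 held the widest contrast within one gene. Its stop codon peak had ratios of 2.12, 1.75 and 2.13 in CON, at 2.03 ± 0.26 (adjusted p = 2.10e-07), higher than 89.1% of 5147 stop codon peaks. Its 3' UTR peak lay at -1.08 ± 0.44 (adjusted p = 0.0349), with -1.52, -1.67 and 0.29 by culture. This second call was lost with the replicate block (0.0622), without CON labelled-IP library 1 (0.206) or 2 (0.103), and without CON labelled-input library 1 (0.0556) or 2 (0.104).

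TRIB3 was called higher at its stop codon peak, at 0.73 ± 0.11 (adjusted p = 2.25e-06), with 0.60, 0.82 and 0.74 by culture. The 50 bp peak in its 3' UTR, on 12 to 53 reads labelled input per CON library, lay at -0.45 ± 0.56 and was not called. PPP1R15A had its 5' UTR peak called lower at -1.42 ± 0.31 (adjusted p = 0.000272) and its coding peak at -0.91 ± 0.14 (4.56e-06). Its stop codon peak, with 1700 to 2482 reads labelled input per CON library, lay at -0.03 ± 0.08 and was not called.

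**Figure D3:**
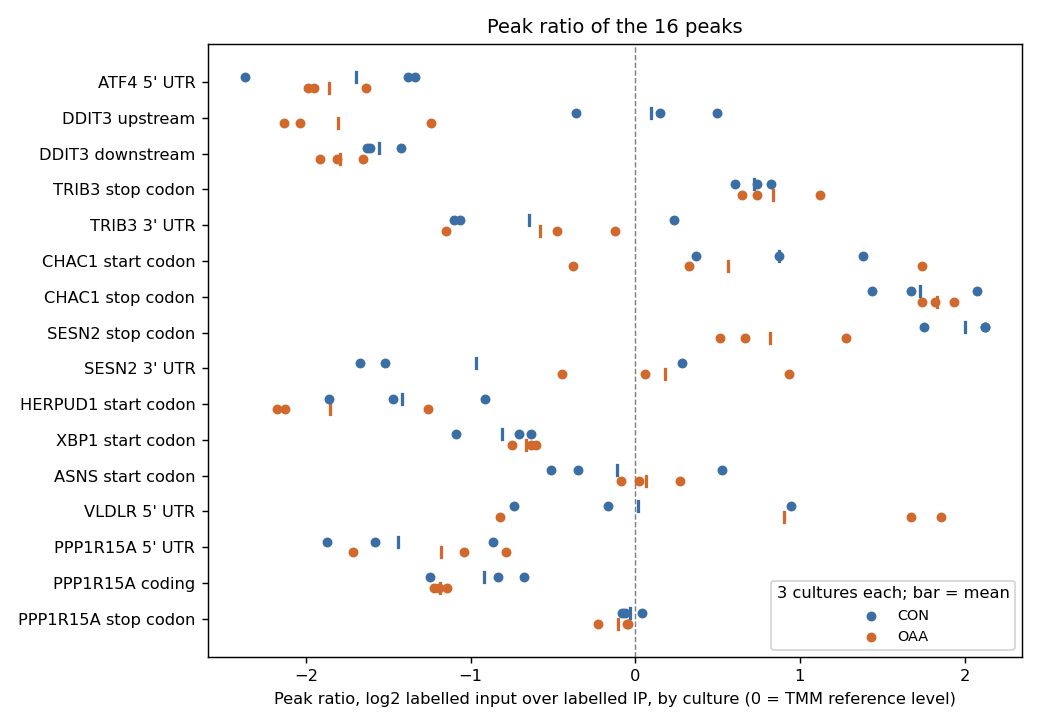
Peak ratio (log2 of labelled input over labelled IP, horizontal axis) of each of the 16 peaks in the 3 CON and 3 OAA cultures. Points are cultures, which are numbered replicates, and bars are means. The dashed line is the reference level of the scaling. The CHAC1 and SESN2 stop codon peaks lie to the right, the ATF4, HERPUD1 and downstream DDIT3 peaks to the left, and the upstream DDIT3 and SESN2 stop codon peaks show CON and OAA cultures apart.

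Peaks of the same gene were then set against each other within each culture, a comparison in which library size cancels. There were 7 such pairs in 5 genes, compared by a two-sided exact sign-flip permutation test over the 6 cultures. Its smallest possible p is 0.0312. The 6 cultures are numbered replicates, which the labels do not state to be independent. In PPP1R15A the stop codon peak had a higher ratio than the coding peak in 6 of 6 cultures, by 0.98 ± 0.21 (log2, SD, n = 6), and than the 5' UTR peak in 6 of 6, by 1.24 ± 0.52. In CHAC1 the stop codon peak lay above the start codon peak in 6 of 6 cultures, by 1.06 ± 0.76, though by only 0.0039 in OAA culture 3. In TRIB3 the 3' UTR peak lay below the stop codon peak in all 6 cultures, at -1.39 ± 0.63. Each of these 4 pairs reached the smallest p (exact p = 0.0312) and none passed adjustment over the 7 pairs (adjusted p = 0.0547). For a pair at the smallest p, the adjusted p depends only on how many pairs reach it. The adjusted p therefore does not tell these 4 pairs apart. The pairs within PPP1R15A share peaks, so the 7 pairs are not independent. As the test was added after the values had been seen, its p-values are no independent support. The test also took CON and OAA cultures together.

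The other 3 pairs did not go one way in every culture. The coding peak of PPP1R15A differed from its 5' UTR peak by 0.26 ± 0.66 (above 0 in 3 of 6 cultures). The SESN2 3' UTR peak lay at -1.80 ± 1.56 against the stop codon peak, with a mean of -2.97 in CON and -0.64 in OAA. The downstream DDIT3 peak lay at -0.82 ± 1.01 against the upstream one, with -1.65 in CON and 0.01 in OAA.

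In OAA the picture over the 16 peaks was close in number: 10 were called by edgeR, 3 higher and 7 lower, beside 68% of 23565 peaks (33.6% higher and 34.4% lower). At an unadjusted p under 0.05 there were 11, beside 70.3%. The calls were not all of the same peaks. Called in CON but not in OAA were the CHAC1 start codon peak (0.55 ± 0.43, edgeR adjusted p = 0.256) and the SESN2 3' UTR peak (0.13 ± 0.48, 0.828). Upstream DDIT3 was called in OAA only. The CHAC1 stop codon peak was the highest in OAA at 1.83 ± 0.11. ATF4 (-1.86 ± 0.14), HERPUD1 (-1.84 ± 0.23) and both DDIT3 peaks (upstream -1.78 ± 0.46, downstream -1.79 ± 0.13) were at the bottom. The SESN2 stop codon peak was called at 0.81 ± 0.26 (adjusted p = 0.00770), but not without OAA labelled-IP library 3 (0.60, adjusted p = 0.0585) or with library size scaling (0.52, adjusted p = 0.0793). VLDLR lay at 1.19 ± 0.53 (adjusted p = 0.0512) and was called without OAA labelled-input library 1 (1.70, adjusted p = 0.00178) and with RLE size factors (adjusted p = 0.0376).

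The change of the peak ratio between the treatments was tested directly, as a difference of the ratios over all 12 libraries. No member was called by edgeR (0 of 16, and 0 by DESeq2), beside 0 (0%) of 24145 peaks, and 2 members had an unadjusted p under 0.05 beside 4.46% of all peaks. In 3 members the CON and OAA cultures did not overlap with OAA lower, beside 6.2% of all peaks, and in 0 with OAA higher, beside 4.22%.

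The SESN2 stop codon peak had the smallest p of the members. Its ratios were 2.12, 1.75 and 2.13 in CON and 0.51, 0.67 and 1.28 in OAA, all OAA cultures below all CON cultures. The difference was -1.20 (log2, 95% interval -1.94 to -0.46, edgeR adjusted p = 0.999). The upstream DDIT3 peak followed, with 0.49, -0.36 and 0.15 in CON and -1.24, -2.04 and -2.14 in OAA. That difference was -1.92 (-3.28 to -0.56, edgeR adjusted p = 0.999), on 16 to 40 reads labelled input and 5 to 22 labelled IP per library. The downstream DDIT3 peak, the third without overlap, differed by -0.21 (-0.56 to 0.14).

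The SESN2 3' UTR peak lay the opposite way from the stop codon peak of the same gene, at 1.23 (-0.13 to 2.58), and the VLDLR peak at 1.19 (-0.27 to 2.65). Both intervals include 0, and both peaks rest on 25 or fewer reads labelled IP in each library. Among the well covered peaks the intervals were narrow: PPP1R15A stop codon -0.04 (-0.29 to 0.20), XBP1 0.16 (-0.16 to 0.48), CHAC1 stop codon 0.14 (-0.19 to 0.48) and TRIB3 stop codon 0.12 (-0.22 to 0.46). The authors' deposited table gives the SESN2 stop codon peak a difference of log2 ratios of -1.14 (p = 0.00763) and the upstream DDIT3 peak one of -1.85 (p = 0.0151), both with an adjusted p of 1.00.

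**Figure D4:**
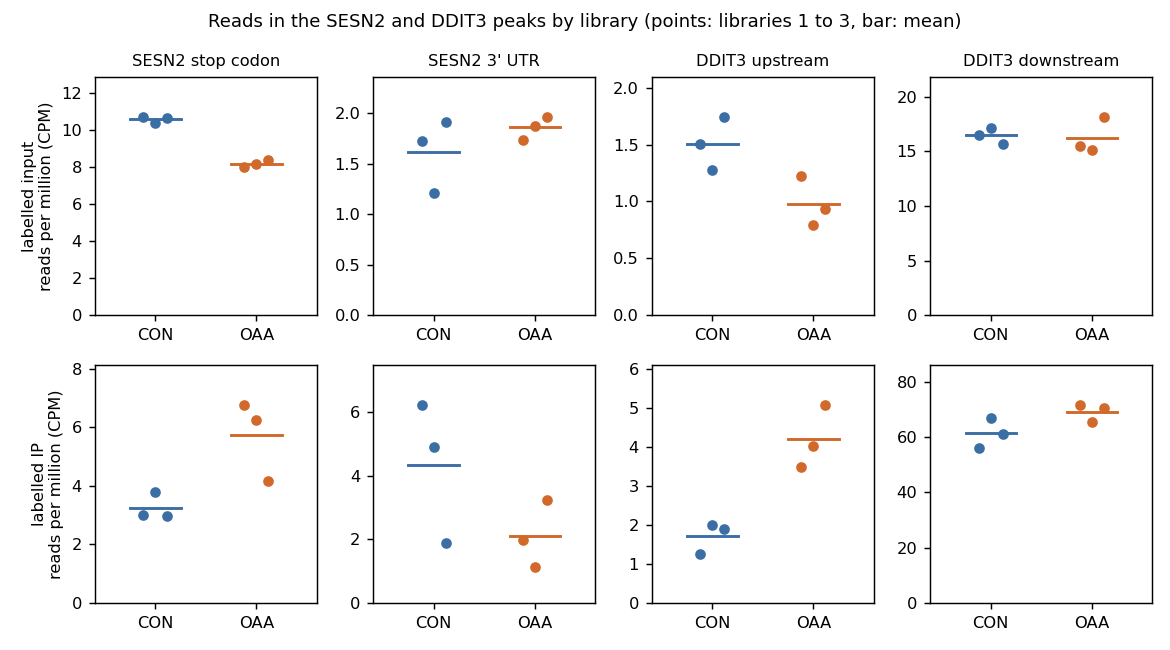
Scaled reads (CPM) in the SESN2 and DDIT3 peaks in each library, labelled input in the upper and labelled IP in the lower panels; points are libraries 1 to 3 and bars are means. For the SESN2 stop codon and upstream DDIT3 peaks, OAA lies below CON in labelled input and above CON in labelled IP.

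Taking each label by itself, OAA against CON was compared on TMM-scaled counts (CPM). In the libraries labelled input 0 of 16 member peaks were called by edgeR and 0 by DESeq2, beside 0 (0%) of 24835 peaks, and 2 had an unadjusted p under 0.05 beside 5.2%. The CHAC1 stop codon peak had 104, 96.1 and 103 CPM in CON and 110, 127.5 and 111 in OAA. Its groups did not overlap, with a difference of 0.20 (log2, 95% interval 0.04 to 0.36, edgeR adjusted p = 0.940). The SESN2 stop codon peak had 10.7, 10.4 and 10.6 CPM in CON and 7.99, 8.16 and 8.38 in OAA. Here OAA was lower in every library, by -0.37 (-0.73 to -0.01, edgeR adjusted p = 0.940).

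Without overlap between the groups, 2 member peaks lay higher in OAA in the libraries labelled input (CHAC1 stop codon and TRIB3 stop codon), beside 5.61% of all peaks, and 2 lower (SESN2 stop codon and upstream DDIT3), beside 5.52%. TRIB3 went from 49.5, 52.8 and 51.6 CPM to 55.5, 57.1 and 56.4, a difference of 0.14 (-0.05 to 0.32). ATF4 (-0.13), HERPUD1 (-0.23), XBP1 (0.21) and ASNS (0.09) had overlapping groups.

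In the libraries labelled IP, 15 of 16 peaks passed the filter, VLDLR being left out, and 0 were called by edgeR or DESeq2, beside 1 (0.00498%) of 20098 peaks. At an unadjusted p under 0.05 there were 3 members, beside 3.88% of all peaks (779 of 20098, and 1789 of 20550 without OAA library 3). The upstream DDIT3 peak had 5, 9 and 7 reads in CON and 16, 18 and 22 in OAA. All OAA values lay above all CON values, at 1.27 (log2, 0.34 to 2.21, edgeR adjusted p = 0.998). The SESN2 stop codon peak had 12, 17 and 11 reads in CON and 31, 28 and 18 in OAA, at 0.81 (0.04 to 1.57, edgeR adjusted p = 0.998).

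The SESN2 3' UTR peak went the other way, with 25, 22 and 7 reads labelled IP in CON and 9, 5 and 14 in OAA, at -1.05 (-2.04 to -0.06, edgeR adjusted p = 0.998), and its groups overlapped. Peaks without overlap numbered 3 with OAA higher (upstream DDIT3, SESN2 stop codon and PPP1R15A coding), beside 4.77% of all peaks, and 0 with OAA lower, beside 4.69%. PPP1R15A coding differed by 0.19 (-0.07 to 0.46), from 43.4, 38.6 and 38.3 CPM to 44.6, 48.3 and 44.7. The stop codon peak of PPP1R15A, from which most of its reads came, differed by 0.12 (-0.05 to 0.30), and XBP1 by 0.03 (-0.17 to 0.23).

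**Figure D5:**
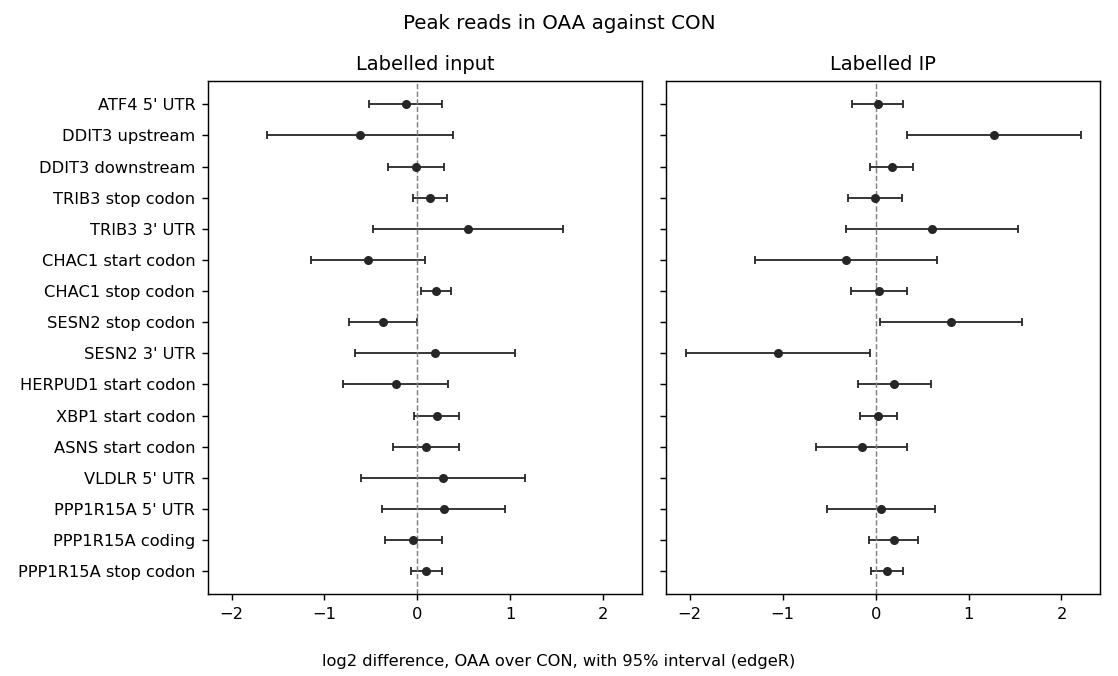
Difference between OAA and CON (log2, points) with 95% intervals by edgeR for the 16 peaks in the libraries labelled input and for 15 in those labelled IP; the dashed line marks no difference. The SESN2 stop codon and upstream DDIT3 peaks lie left of 0 in labelled input and right of 0 in labelled IP; in labelled input the intervals of the SESN2 and CHAC1 stop codon peaks leave out 0 and that of upstream DDIT3 includes it.

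The rest of the pathway was read from 61 other genes in 5 lists, counting peaks that lie under 1 gene. None of them was called between OAA and CON: 0 of 57 genes in FPKM (median -0.03), 0 of 110 peaks of labelled input (median 0.01), 0 of 94 of labelled IP (median 0.00) and 0 of 106 in the change of the ratio (median 0.00). In FPKM 17 of the 57 genes lay above 0, while 43.0% of all genes tested did.

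In the CON peak ratio the 5 lists held 31 of 103 peaks called higher and 46 lower, beside 34.9% and 34.6% of all 23366 peaks tested, the shares to set beside each count that follows. Differences between lists were not tested. Amino acid enzymes, transporters and tRNA synthetases had 2 of 29 peaks called higher and 20 lower, with a median of -0.75. Those higher included the stop codon peak of the arginine transporter SLC7A1 (2.86 ± 0.08), and those lower NARS1, the asparaginyl-tRNA synthetase (-1.79 ± 0.08), and the glutamine transporter SLC38A2 (-0.94 ± 0.07). The eIF2 kinases, eIF2 and eIF2B subunits and IMPACT had 1 of 13 higher and 7 lower (median -0.86): the coding peak of EIF2AK3 (PERK), the kinase of the endoplasmic reticulum, lay at 2.76 ± 0.08, and the stop codon peak of EIF2B5 at -1.66 ± 0.15.

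Other transcription factors and regulators had 11 of 23 peaks called higher and 8 lower (median 0.36). ATF3, a partner of ATF4, lay at 1.88 ± 0.06 in its 3' UTR, CEBPB at 1.40 ± 0.07 and PPP1R15B, the constitutive counterpart of PPP1R15A, at 1.33 ± 0.06. Among those called lower was the stop codon peak of PPP1CC, at -1.73 ± 0.09. Sensors of the unfolded protein response and factors of degradation had 12 of 24 higher and 6 lower (median 0.31), with the 3' UTR peak of ERN1, which encodes IRE1, at 2.13 ± 0.14 and ATF6 at 1.33 ± 0.07. Secreted and death effectors had 5 of 14 higher and 5 lower (median 0.10), with BBC3 (PUMA), a death effector, at 2.61 ± 0.13 and EIF4EBP1, a repressor of translation, at -1.56 ± 0.08 (log2, SE, stop codon peaks). In OAA, beside 33.6% of all peaks called higher and 34.4% lower, the counts of higher and lower calls were 2 and 21 of 29 peaks for the amino acid list and 1 and 7 of 13 for the eIF2 list. They were 11 and 8 of 23 for the transcription factors, 11 and 7 of 26 for the sensors and 5 and 5 of 14 for the effectors.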

How the data were processed

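Libraries were grouped by their titles. The deposited peak table gives raw read counts per merged peak and library, with the authors' log2 ratios and p-values, per the file headers. The deposited gene table gives FPKM. Bowtie2 and HISAT2 stand in the submitters' processing notes without version or role. All columns of single libraries were matched (0 unmatched). Low FPKM values fall in steps of whole reads, from which the libraries' depths relative to CON library 1 came out at 0.901 to 1.11. Positions are printed 1-based, with 1 added to each deposited start.

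Each peak was used once, and fits ran over all peaks or genes. Counts were tested with edgeR 4.0.16 (quasi-likelihood, TMM, default filter by expression) in R 4.3.3 and FPKM with trended limma 3.58.1 on log2(FPKM + 1), over genes that reached 1 FPKM in 3 or more libraries, which understates differences of low genes. DESeq2 1.42.0 was an alternative. A feature counted as called where its adjusted p (Benjamini-Hochberg) was under 0.05, and p-values of edgeR and limma are those of these fits. Ratios by culture had 0.5 added to each count. SE was taken from the edgeR F statistic. Scripts were tested on simulated data.

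The members, gene lists and rules were chosen with earlier results of these data known. The test between peaks of one gene was added after the values had been seen. The naming rule takes all members and, from each list, up to 4 called peaks with the smallest p per comparison, of which a part is printed. That both libraries of a number come from one culture rests on the protocol, which divides the RNA. Their deviations from the group means correlated at -0.0388 to 0.203 with the same number and at -0.147 to 0.0759 with different numbers.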

Additional observations from a re-analysis of the deposited data

How the results depend on the processing

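With the replicate block, 10 of the 16 peaks were called in CON, against 11 without it, and 10 in OAA, and 0 members were called in the other 4 comparisons. The block changed 1 member call, that of the SESN2 3' UTR peak in CON. Library size scaling added calls of ASNS in CON and of the PPP1R15A stop codon peak in CON and OAA. Under every alternative run, no member was called between OAA and CON in FPKM, in either label or in the change of the ratio, where the smallest adjusted p of a member was 0.173, 0.346, 0.676 and 0.929 with a library left out (FPKM, labelled IP, labelled input, change). Each came without an OAA library of replicate 3 (labelled input for the third, labelled IP for the others). The counts over all features were 0 in labelled input, FPKM and the change, and 1 in labelled IP. They became 2 (DESeq2) and 1 (block) in labelled input, 1 in FPKM without the minimum, 1 in the change with DESeq2 or the block, up to 1 in labelled input and in the change with a library left out, and in labelled IP 0 (library size), 4 (block or no filter) and 0 to 50 with a library left out, 50 without OAA library 3. Signs of member differences that were not called turned in some alternatives, in 7 peaks of labelled IP, 5 of labelled input, 6 of the change and 2 genes in FPKM. The sign of the peak ratio turned in 4 peaks in CON and 3 in OAA, none of them a reversed call. Quantile normalization and a pseudocount of 0.1 changed no call. Depth limits the peaks with few reads: the 95% interval of the change reached 1.48 log2 units to either side for the TRIB3 3' UTR peak and 0.246 for the PPP1R15A stop codon peak.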
